A study of Apis mellifera carnica with 38 samples.

Results

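The genes described here are those whose fat body level differed between Hayes-injected and uninjected virgin queens, and differed by nearly the same amount in queens injected with ejaculate. They are 100 of the 12332 genes counted, 51 higher after injection (rising) and 49 lower (falling). Levels were CPM, the reads counted on a gene scaled to a common total of gene reads per library, and differences were taken between group means of log2(CPM + 1). A gene was eligible if its mean level over the 20 fat body libraries was 5 CPM or more, which 7484 genes met. It was also required that the ejaculate-injected queens, seminal fluid and semen together, lie within 0.2 of the Hayes queens, which 5289 of these genes met. The 100 with the largest difference between Hayes and virgin queens were then taken.

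The study asked which parts of the ejaculate bring about changes in honey bee queens (*Apis mellifera*). Sister virgin queens of the subspecies *carnica*, all with a clipped wing, were assigned to 4 groups about a week after emergence. HS queens were injected through the abdomen wall into the hemocoel, the blood-filled body cavity, with Hayes solution, the salt diluent of semen. SF queens received seminal fluid, which also held Hayes solution, and SE queens received whole semen. V queens were virgin and not injected, so against V the wound, the handling and the fluid cannot be told apart. No anaesthetic was used, and the tissues were taken about a week later. RNA of single queens gave 20 fat body libraries (5 HS, 5 SF, 5 SE and 5 V) and 18 brain libraries of the same queens (5 HS, 3 SF, 5 SE and 5 V). Queens are named by their labels, such as H51 or C20.

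The insect fat body combines functions of liver and adipose tissue. It stores lipid and glycogen, makes the yolk protein vitellogenin and the hexamerins, and releases immune peptides into the hemolymph. The libraries named fat body were made from the abdomen wall after the viscera had been removed, with the fat body lining it. Wounding of the cuticle is known to set off repair and immune responses in insects. Virus infection also changes fat body transcripts in bees.

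Injected fat bodies differed from V fat bodies in the reads themselves. Between 49.3 and 71.6% of the reads of the 15 injected fat bodies did not align to the bee genome, against 3.64 to 5.13% in V fat bodies. Gene reads numbered 4832119 to 13212533 in injected and 16332047 to 29963718 in V fat bodies. Reads with more than 1 alignment made up 3.33 to 9.30% of all reads in injected and 9.96 to 14.98% in V fat bodies. All reads include the unaligned ones, so this percentage falls as the unaligned share rises. The percentage among aligned reads alone was not computed, so no difference in multiple alignment is read from these ranges. None of these ranges overlapped, so the injection and the share of unaligned reads cannot be told apart in the fat body. The study found that many of these reads came from Deformed Wing Virus, a picorna-like virus of bees. With the unaligned share as a further term, edgeR called 0 genes in HS, 3 in SF and 1 in SE, all relative to V. That term was chosen after seeing the data. It is nearly the same as injection in the fat body, so the fit cannot separate them and nothing is read from these counts.

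The fat body label was checked against defining genes. Of 7 fat body markers 6 reached 5 CPM, and their summed level was 25301 to 49006 CPM in HS, 38881 to 78806 CPM in SF, 37892 to 61212 CPM in SE and 61315 to 120456 CPM in V. *Vg*, the vitellogenin gene, was at 13040 to 37563 CPM in HS, 14691 to 47745 CPM in SF and 17850 to 35189 CPM in SE, against 41439 to 97431 CPM in V, and edgeR called it lower in each injected group. *HEX70b*, a hexamerin gene, was called higher in each, at 76.2 to 94.8 CPM in HS, 87.4 to 146 CPM in SF and 95.7 to 183 CPM in SE, against 33.7 to 43.2 CPM in V. Of the 6 fat body markers 1 was called higher in HS and 4 in each of SF and SE. Over all tested genes 3.45, 13.6 and 16.3% were called higher in HS, SF and SE. Of 7 muscle markers 4 reached 5 CPM, with sums of 1948 to 2599 CPM in HS, 2000 to 2830 CPM in SF, 1911 to 2998 CPM in SE and 2430 to 3068 CPM in V. The 5 neuron markers summed to 395 to 568 CPM in injected and 380 to 500 CPM in V fat bodies. Most of that sum came from *Syx1A* and *Para*, at means of 311 and 133 CPM over all fat bodies. Of the 5, edgeR called *brp* and *Syt1* lower in SF and in SE, and 0 in HS. None was called higher, and 14.5 and 17.1% of all tested genes were called lower in SF and SE. The hemocyte marker, a prophenoloxidase, was at 23.2 to 483 CPM in injected and 22.8 to 75.7 CPM in V. Germ line markers summed to 27.3 to 60.8 CPM over all fat bodies. Markers of epidermis summed to 30.1 to 309 CPM in injected and 35.0 to 118 CPM in V, and those of oenocytes, the hydrocarbon-making cells of the abdomen wall, to 12164 to 42379 CPM in injected and 32038 to 50227 CPM in V. The oenocyte markers *FAR1* and *Cyp4g11* were called lower in SF and SE, and *FAR1* also in HS. The muscle marker *TpnCI* was called lower in HS and SE, and *TpnI* in SF and SE. The germ line marker *aub* was called lower in each injected group, and the prophenoloxidase higher in SF. In HS 4.18% of all tested genes were called lower. In bulk tissue, fewer cells of a type and less RNA per cell cannot be told apart, and the part of cell makeup in the results was not tested.

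Because the rule used the fat body differences, those of the members are a description. The median rising member was higher by 0.84 in HS, 0.87 in SF and 0.96 in SE than in V on the log2(CPM + 1) scale. The median falling member was at −0.88 in HS, −1.0 in SF and −0.90 in SE relative to V. The median of all 7484 eligible genes was at 0.07, −0.02 and 0.07 in HS, SF and SE, all minus V. The smallest HS changes among the members were 0.66 for *LOC409351* and −0.67 for *LOC409712*. The first genes outside were *LOC100576657* at 0.65 and *SIFR*, a neuropeptide receptor gene, at −0.64.

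**Figure D1:**
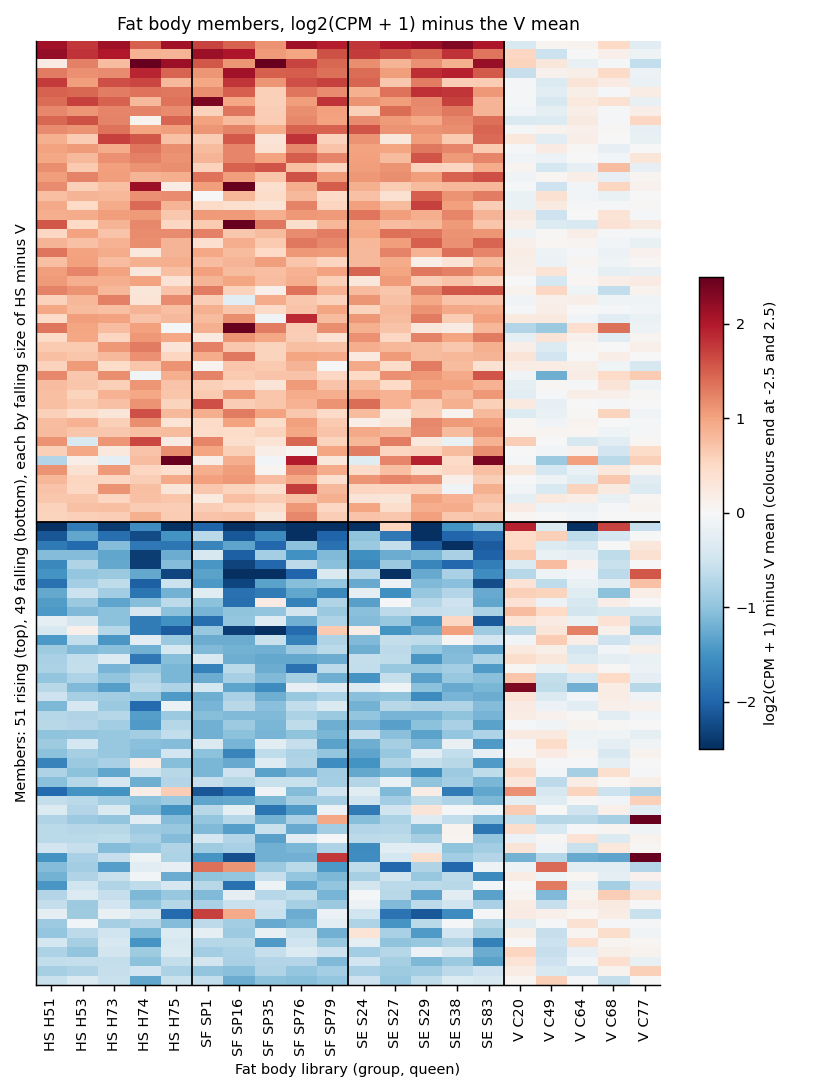
Each column is 1 fat body library, grouped as HS, SF, SE and V, and each row 1 of the 100 members, with the 51 rising members above the 49 falling ones. Colour gives log2(CPM + 1) minus the mean of the 5 V libraries (red higher, blue lower), and the 15 injected columns are mostly red above and blue below the line.

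In 28 of 51 rising members all 15 injected fat bodies lay above all 5 V fat bodies, which held for 2.75% of the eligible genes. In 12 of 49 falling members all injected fat bodies lay below, against 1.31% of the eligible genes. The rule chose on this contrast, so nothing is read from the excess. The libraries were run on 6 lanes, of which 5 held a V fat body. The injected mean lay on the member's own side of V in each of those 5 lanes for 50 rising and 38 falling members. The rule set the members' direction on the same libraries, and 42.3% of eligible genes kept 1 sign in those lanes. All 100 members passed the filter of the fat body test. In the edgeR test of HS against V, 75 members were called where 7.63% of all 8403 tested genes were. For SF against V 84 members were called (28.1% of tested genes), and for SE 82 (33.4%).

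Mean levels over the 20 fat bodies were higher in rising and lower in falling members than in eligible genes, by their medians. Most of these libraries were injected, so the rule's contrast itself raises that mean in rising members and lowers it in falling ones. The part of the rule in these medians was not tested. The median level over the 20 fat bodies was 74.2 CPM for rising members and 18.0 CPM for falling members, against 39.3 CPM for all eligible genes. Rising members together took 2.83 to 3.59% of the gene reads in HS, 2.88 to 4.22% in SF and 3.01 to 3.49% in SE, against 1.37 to 2.31% in V. Falling members together took 0.228 to 0.362% in injected and 0.462 to 0.692% in V fat bodies. Neither pair of ranges overlapped, but the rule chose the members on this contrast, so nothing is read from that separation.

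A single gene carried much of the rising sum. *LOC551496* was at 17992, 12794, 16542, 17643 and 18157 CPM in HS and at 12041, 22639, 23932, 13543 and 11694 CPM in SF. It was at 16611, 17675, 12130, 11788 and 15407 CPM in SE and at 8447, 5995, 7052, 13884 and 6998 CPM in V. One V queen, C68, lay above 6 of the 15 injected queens, and the other 4 lay below all of them. The gene is on chromosome 10 (10956832 to 10959145, Amel_HAv3.1) near 2 other rising members, *LOC102655465* at a gap of 13105 bases and *LOC102655526* at 24664 bases.

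The gene with the largest rise was *LOC411894* on chromosome 8 (12183077 to 12209596), for which the annotation used here gives no product. It was at 1010, 804, 1017, 659 and 1011 CPM in HS, and at 762, 651, 515, 1028 and 923 CPM in SF. It was at 815, 974, 1032, 1171 and 957 CPM in SE, against 181, 246, 249, 331 and 194 CPM in V. All 15 injected fat bodies lay above all V fat bodies, and the lowest was an SF queen. The differences from V were 1.91 in HS, 1.68 in SF and 2.06 in SE.

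*LOC100577112* (chromosome 15, 5771200 to 5772842) was higher by 1.40 in HS. Its level was 691 ± 160 CPM in HS, 758 ± 206 CPM in SF and 776 ± 186 CPM in SE, against 265 ± 68.9 CPM in V (SD, n = 5 each). *LOC726766* was at 155, 150, 135, 142 and 139 CPM in HS, a narrow band, and at 83.7 to 198 CPM in SF and SE, against 45.6 to 62.9 CPM in V. *LOC411577* was also narrow in HS, at 413 to 450 CPM, and lay at 283 to 504 CPM in SF and SE and at 162 to 214 CPM in V. None of these 3 genes overlapped V. *LOC726323*, with 1124 to 1705 CPM in injected and 496 to 625 CPM in V fat bodies, and *LOC725512*, with 14.6 to 29.1 CPM in injected and 9.39 to 12.9 CPM in V fat bodies, did not overlap either.

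Other large risers were less even. *LOC724367* was at 60.6, 127, 91.0, 432 and 236 CPM in HS and at 115 to 328 CPM in SF, against 34.1 to 77.4 CPM in V. Its lowest HS queen, H51, lay inside the V range. *LOC102654795* was a weak gene, at 3.81 to 11.4 CPM in injected and 0.857 to 2.84 CPM in V fat bodies, and still did not overlap. *LOC408690* was at 100 ± 27.2 CPM in HS, 103 ± 25.3 CPM in SF and 73.3 ± 21.3 CPM in SE, against 37.3 ± 7.13 CPM in V (SD, n = 5 each). *LOC552285* overlapped V through the HS queen H74, at 36.5 CPM. *LOC102655465* was at 8.19 to 25.1 CPM in injected and 5.27 to 7.97 CPM in V fat bodies.

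**Figure D2:**
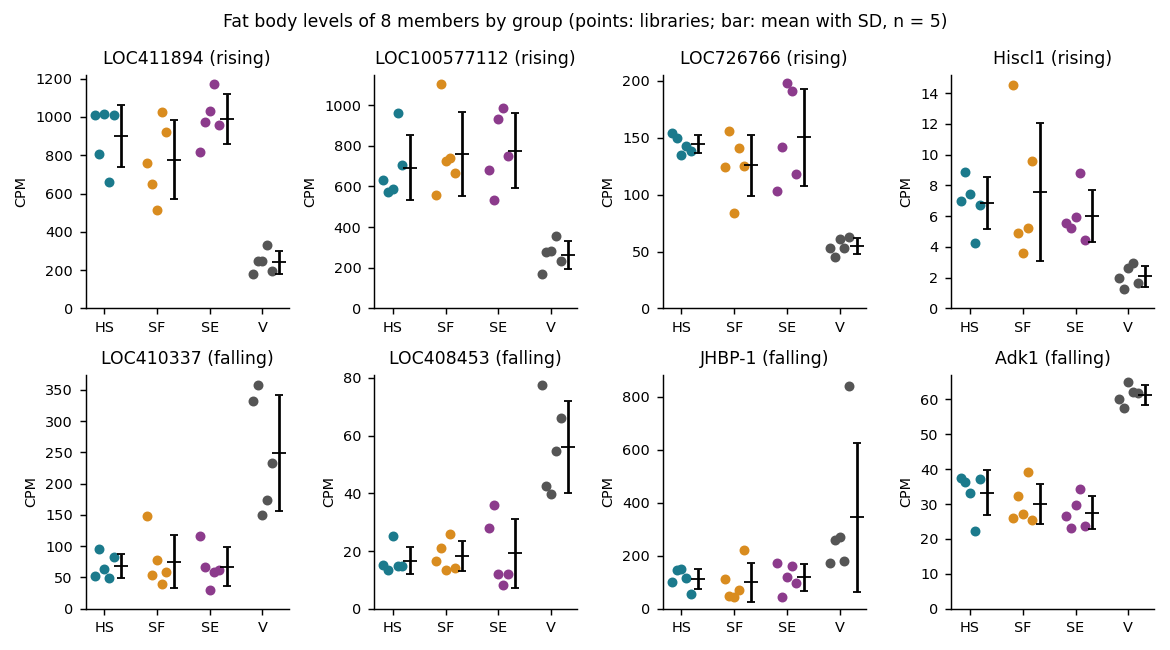
Points give the CPM of each fat body library for 4 rising members (*LOC411894*, *LOC100577112*, *LOC726766*, *Hiscl1*) and 4 falling members (*LOC410337*, *LOC408453*, *JHBP-1*, *Adk1*), by group, and the bar beside them the mean with its SD (n = 5). The V points of *Adk1* lie at 57.4 to 64.9 CPM, all above the injected points, while those of *JHBP-1* overlap them and include 1 V queen at 842 CPM.

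Of the 100 members 8 had a named symbol, and 3 of these were rising members. *Hiscl1* encodes a histamine-gated chloride channel, an inhibitory receptor best known from the *Drosophila* visual system. It was at 6.99, 8.90, 7.42, 4.28 and 6.73 CPM in HS, 14.5, 4.92, 3.60, 5.21 and 9.60 CPM in SF, and 5.59, 5.21, 5.93, 8.84 and 4.46 CPM in SE, against 1.96, 1.29, 2.60, 2.94 and 1.66 CPM in V. It was a weak fat body gene and lay at 61.4 to 202 CPM in brains. *Fabp* encodes a fatty acid-binding protein, a carrier of fatty acids in the cytoplasm. It was at 864 to 1484 CPM in injected fat bodies, all above the 450 to 611 CPM of V, and its differences from V were 1.06 in HS, 1.16 in SF and 1.13 in SE. It lies 5953 bases from the rising member *LOC408690* on chromosome 2. *GstS1* encodes a sigma-class glutathione S-transferase, which in *Drosophila* conjugates lipid peroxidation products. It was at 347 ± 91.4 CPM in HS, 277 ± 73.7 CPM in SF and 342 ± 43.7 CPM in SE, against 189 ± 18.2 CPM in V (SD, n = 5 each), with the SF queen SP16, at 157 CPM, below every V queen.

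The other named members were falling ones. *JHBP-1*, a juvenile hormone binding protein gene, was at 99.9, 145, 149, 116 and 57.4 CPM in HS and at 112, 46.4, 44.2, 71.4 and 223 CPM in SF. It was at 173, 46.2, 118, 162 and 96.4 CPM in SE, against 174, 260, 271, 180 and 842 CPM in V. The V queen C77 stood far above the rest, and the SF queen SP79 was the only injected queen inside the V range. *Cpap3-d*, which encodes a chitin-binding cuticular protein analogous to peritrophins, was at 43.5 to 91.9 CPM in injected fat bodies, below the 102 to 166 CPM of V. *Adk1* was at 22.3 to 39.2 CPM in injected and 57.4 to 64.9 CPM in V fat bodies, with an SD of 2.77 CPM among V queens. *Obp18*, an odorant binding protein gene, was at 751 ± 143 CPM in HS, 787 ± 113 CPM in SF and 778 ± 226 CPM in SE, against 1240 ± 354 CPM in V (SD, n = 5 each), with overlap. *ATP6*, a mitochondrially encoded subunit of ATP synthase, was at 5.17 to 26.2 CPM in injected and 14.6 to 33.0 CPM in V fat bodies, and overlapped.

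The falling member with the largest change was *LOC411907* on chromosome 4 (3406438 to 3414622), and its V queens disagreed. It was at 1.31, 5.14, 3.03, 6.15 and 2.80 CPM in HS, 0.971 to 4.24 CPM in SF, and 1.86, 29.4, 1.30, 6.45 and 9.27 CPM in SE, against 79.1, 15.6, 2.24, 66.9 and 13.1 CPM in V. The V queens C64, C49 and C77, at 2.24, 15.6 and 13.1 CPM, lay within the injected range of 0.971 to 29.4 CPM. *LOC410337* (chromosome 11) was at 30.2 to 148 CPM in injected and 150 to 358 CPM in V fat bodies, and *LOC408453* (chromosome 14) at 8.20 to 35.8 CPM in injected and 39.7 to 77.5 CPM in V. The ranges of these last genes did not overlap, and their differences in HS were −1.81 and −1.68.

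Among the next falling members, *LOC551197* was at 3.21 to 12.7 CPM in injected and 13.7 to 35.9 CPM in V fat bodies, with no overlap. *LOC552773* was at 13.6 ± 4.29 CPM in HS, 16.6 ± 7.32 CPM in SF and 14.1 ± 4.44 CPM in SE, against 38.0 ± 13.9 CPM in V (SD, n = 5 each), and only the SF queen SP1 reached the V range. In brains that gene was at 0 to 0.262 CPM. *LOC409598*, *LOC408539*, *LOC409143*, *LOC551143*, *LOC100576986* and *LOC100577026* had differences from −1.19 to −0.96 in HS. Of these 6, *LOC100577026* was the least even, at 1.57 to 37.0 CPM in injected and 8.50 to 44.0 CPM in V fat bodies. The remaining 39 rising members differed by 0.66 to 1.06 and the remaining 37 falling members by −0.94 to −0.67 in HS.

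In 9 members, 7 falling and 2 rising, leaving out 1 library shrank the HS difference by over 1.5 times or turned its sign, and they are named here after their values were seen. *LOC411564* was at 235 CPM in the V queen C77 and at 3.36 to 5.63 CPM in the other V queens. Its difference in HS was −0.76 and, without C77, 0.35. *LOC100577883* was at 72.4 CPM in C77 and at 5.04 to 6.25 CPM in the other V queens, and its difference of −0.80 was −0.10 without C77. The same V queen was the one high in *JHBP-1*. The 2 rRNA members, *LOC113219378* and *LOC113219382*, lie on unplaced scaffolds. They belong to 55 rRNA genes whose likeness was not examined, so their counts may be uncertain. *LOC113219382* was at 36.0 CPM in C49, and its difference of −0.76 was −0.41 without that queen. That of *LOC113219378*, at 37.0 CPM in H75 and 78.2 to 128 CPM in the other HS queens, was −0.73, or −0.43 without H75.

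The rising member *LOC726855* was at 40.2 CPM in the HS queen H75 and 0.982 to 4.64 CPM in the other HS queens. Its difference of 0.73 was −0.0014 without H75. *LOC725106*, a falling member, was at 35.8 CPM in the V queen C20 and 2.17 to 7.35 CPM in the other V queens, and its difference of −0.92 was −0.34 without C20. Without C20 that of *LOC727193* was −0.54 in place of −0.82. Without C49 that of the rising *LOC412986* was 0.47 in place of 0.78, and that of the falling *LOC413590* −0.42 in place of −0.75.

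The annotation gave a few features that the rule had not used. Of the rising members 49 were protein coding and 2 long non-coding, and of the falling members 46 were protein coding, 1 long non-coding and 2 rRNA. The median span from gene start to end was 3940 bases for rising and 8185 bases for falling members, against 4201 bases for all eligible genes. Spans over 50000 bases were found in 5.88% of rising members, 16.3% of falling members and 7.76% of eligible genes. Of 97 members placed on chromosomes 10 lay within 50000 bases of another member, in 7 pairs, of which 6 joined members of the same direction. Pairs on chromosomes 10 and 13 shared genes, so they are not independent. The same count was not made for eligible genes, so nothing is read from it. On chromosome 13 *LOC724644*, *LOC413594* and *LOC413596* were all rising members. The exception was on chromosome 2, with the falling *LOC408650* 26712 bases from the rising *LOC410133*. The spans of 21 rising (41.2%) and 14 falling members (28.6%) overlapped another gene, as did those of 33.5% of eligible genes, and their reads may be shared with it.

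Seminal fluid and semen were held to Hayes only as a mean, so the difference between SE and SF fat bodies was open to a test. The difference was under 0.2 in 27 of 51 rising and 29 of 49 falling members, 56% of members, and in 79.1% of eligible genes. It was over 0.5 in 8% of members and in 1.40% of eligible genes. Members also varied more between queens of 1 group. Their median SD of log2(CPM + 1) was 0.37 in SF and 0.34 in SE, against 0.205 and 0.210 for eligible genes. The part of that spread in these shares was not tested. By edgeR, fitted on all 20 fat bodies, 0 genes and 0 members differed between SE and SF at an adjusted p under 0.05. DESeq2 and limma-voom also called 0. At an unadjusted p under 0.05 edgeR gave 9 of 100 members and 5.8% of genes.

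In some of these 9 members single queens stood out. *LOC113219378* was at 103, 39.7, 32.8, 47.8 and 140 CPM in SE against 476, 280, 98.5, 61.1 and 131 CPM in SF, an edgeR log2 difference of −1.60 ± 0.50 (adjusted p = 0.843). Here and below, edgeR values are log2 differences or slopes with their standard error. It was at 98.3 to 167 CPM in V, so the SF mean alone lay above V, at 0.14. *LOC410537* was at 13.5 to 22.1 CPM in SE, and at 116 CPM in the SF queen SP16 against 18.4 to 29.2 CPM in the other SF queens, a difference of −1.34 ± 0.50 (edgeR, adjusted p = 0.843). *LOC411907* had the opposite sign, at 2.16 ± 0.91 (edgeR, adjusted p = 0.843), with the SE queen S27 highest. The smallest p belonged to *LOC409520*, at 0.28 ± 0.08 (edgeR, adjusted p = 0.843).

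**Figure D3:**
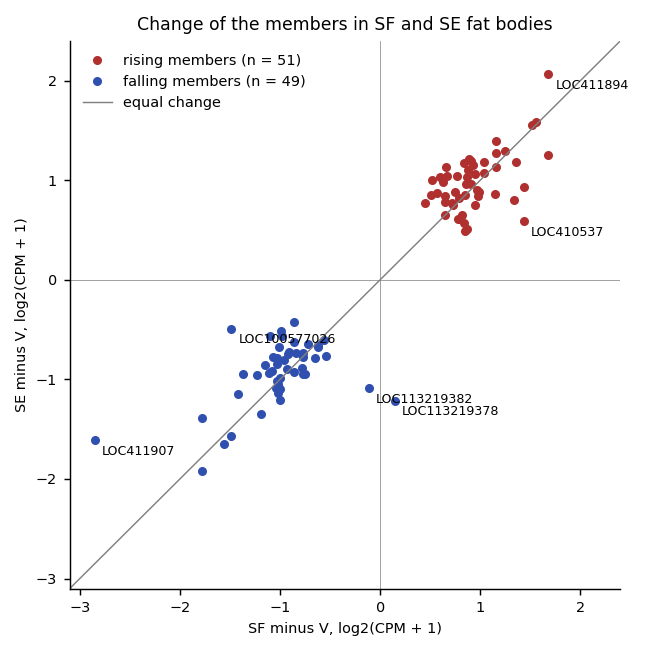
Each point is 1 member, placed by its difference from V in SF (x axis) and SE (y axis) fat bodies on the log2(CPM + 1) scale, with a line of equal change. Both axes share the 5 V libraries. Rising members lie at 0.44 to 1.68 in SF and 0.49 to 2.06 in SE, and falling members at −2.85 to 0.14 in SF and −1.92 to −0.43 in SE.

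Within the fat body groups no member was called on the unaligned share by edgeR. A common slope on the share, with a mean for each group, called 0 of 8403 genes, and 9 members had an unadjusted p under 0.05, where 6.62% of genes did. The smallest p among members was that of *LOC552417*, at 0.41 ± 0.08 on the log2 scale per 10 points of unaligned share (edgeR, adjusted p = 0.596). DESeq2 called 2 genes (0.0238%), 1 of them a member, and limma-voom 0. Such a slope is fitted within groups, where the share covers a narrower range than between injected and V fat bodies.

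Most members were also expressed in the brains of the same queens, which the rule had not used. In brains 50 rising and 45 falling members passed the filter. *LOC724644* was at 379 to 4778 CPM in brains and 11.7 to 126 CPM in fat bodies. *Obp18* was at 0.621 to 21.2 CPM in brains and 507 to 1753 CPM in fat bodies. Brain levels under 1 CPM were found for 1 rising and 5 falling members, 10.2% of the falling members, against 0.681% of eligible genes.

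No member was called between injected and V brains by edgeR, nor was any other of the 9057 genes tested. At an unadjusted p under 0.05 the test gave 5 of 95 members in HS (5.76% of genes), 12 in SF (4.02%), 18 in SE (7.4%) and 6 for the mean of the injected groups (3.5%), each against V. Of the 18 in SE, 12 were falling members that were lower in SE brains, where 4.31% of genes were lower. The median rising member differed by 0.04 in HS, 0.12 in SF and −0.05 in SE brains, and the median falling member by −0.08, −0.08 and −0.16, all minus V. DESeq2 called 8 genes in HS (0.0883%), 1 of them a member, 0 in SF, 2 in SE and 2 for the mean, and limma-voom 0 in each. *LOC102653748*, a falling member in the fat body, was higher by 0.66 ± 0.15 in HS brains (edgeR, adjusted p = 0.537). *JHBP-1* differed by −3.87 ± 1.5 in SE brains (edgeR, adjusted p = 0.666). Of the SE brains 4 were at 4.17 to 5.61 CPM and S83 at 276 CPM, with V brains at 335 to 1924 CPM. Low levels were not particular to SE, with the HS brains H53 at 5.45 CPM and H74 at 4.06 CPM. The other HS brains were at 370 to 1432 CPM and the SF brains at 321 to 1764 CPM.

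The SF brain result turned on 1 library. The SF brain SP16 had 6.08% unaligned reads, where the others, SP1 and SP76, had 38.9 and 39.7%. Without SP16, 7 members and 132 genes (1.45%) were called between SF and V brains, and without S83 and SP16 9 members and 221 genes (2.44%). In these fits SP1 and SP76 were the only SF brains, while the V brains C64, C68 and C77 were at 4.24 to 5.37%. The part of the unaligned share in these calls was not tested.

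In brains the unaligned share varied inside the groups. It was 22.1 to 53.6% in HS, 6.08, 38.9 and 39.7% in SF, and 28.2 to 35.3% in 4 SE brains with S83 at 4.05%. It was 34.3% in C20, 25.1% in C49 and 4.24 to 5.37% in the other V brains. The fat bodies of C20 and C49 were at 4.08 and 5.13%. A slope of each gene on the share was fitted within groups over the 18 brains, per 10 points, so that V, HS, SF and SE keep their own means.

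By this slope 17 of 95 members were called, where 8.79% of 9057 genes were. Of 50 rising members 12 were called with a positive slope, against 5.8% of genes, and 0 with a negative slope. Of 45 falling members 4 were called with a negative slope, against 2.99% of genes, and *LOC551143* with a positive slope of 0.14 ± 0.04 (edgeR, adjusted p = 0.030). Signs over all tested members, called or not, were positive in 38 of 50 rising and negative in 28 of 45 falling members, where 47.0% of genes were positive. The median slope was 0.074 for rising and −0.037 for falling members.

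The levels of called members by share describe genes chosen for that slope, with no test. *GstS1* had a slope of 0.22 ± 0.03 (edgeR, adjusted p = 7.5e-04), with 334 to 520 CPM in the 13 brains at or above 22.1% unaligned reads and 268 to 325 CPM in the 5 brains at or below 6.08%. *LOC411577* was at 527 to 978 CPM in those 13 brains and 156 to 180 CPM in those 5 (slope 0.61 ± 0.09, adjusted p = 0.0011). *LOC724644* was at 2469 to 4778 CPM against 379 to 518 CPM (slope 0.80 ± 0.15, adjusted p = 0.0040).

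These 3 genes did not overlap between the 13 brains and the 5, which were the SE brain S83, the SF brain SP16 and the V brains C64, C68 and C77. *LOC725512* was at 24.1 to 37.6 CPM in the 13 brains and 11.7 to 13.6 CPM in the 5, and *LOC726766* at 144 to 237 CPM and 89.2 to 116 CPM. *LOC552417* was at 1259 to 1955 CPM in the 13 brains and 887 to 1032 CPM in the 5. The largest slope was that of *LOC100577112*, at 0.98 ± 0.16 (edgeR, adjusted p = 0.0015), with 9.41 to 106 CPM in the 13 brains and 3.65 to 11.5 CPM in the 5.

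Among falling members *LOC408650* was at 236 to 550 CPM in the 13 brains and 528 to 900 CPM in the 5 (slope −0.29 ± 0.06, edgeR, adjusted p = 0.0060), and *LOC726783* at 14.5 to 29.7 CPM and 27.7 to 42.6 CPM (slope −0.25 ± 0.04, adjusted p = 0.0017). *LOC409818* and *LOC724259* had slopes of −0.090 and −0.089. The remaining called members, all rising, were *LOC726323*, *LOC410537*, *LOC724367*, *LOC413594* and *LOC409451*, with slopes of 0.09 to 0.53.

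**Figure D4:**
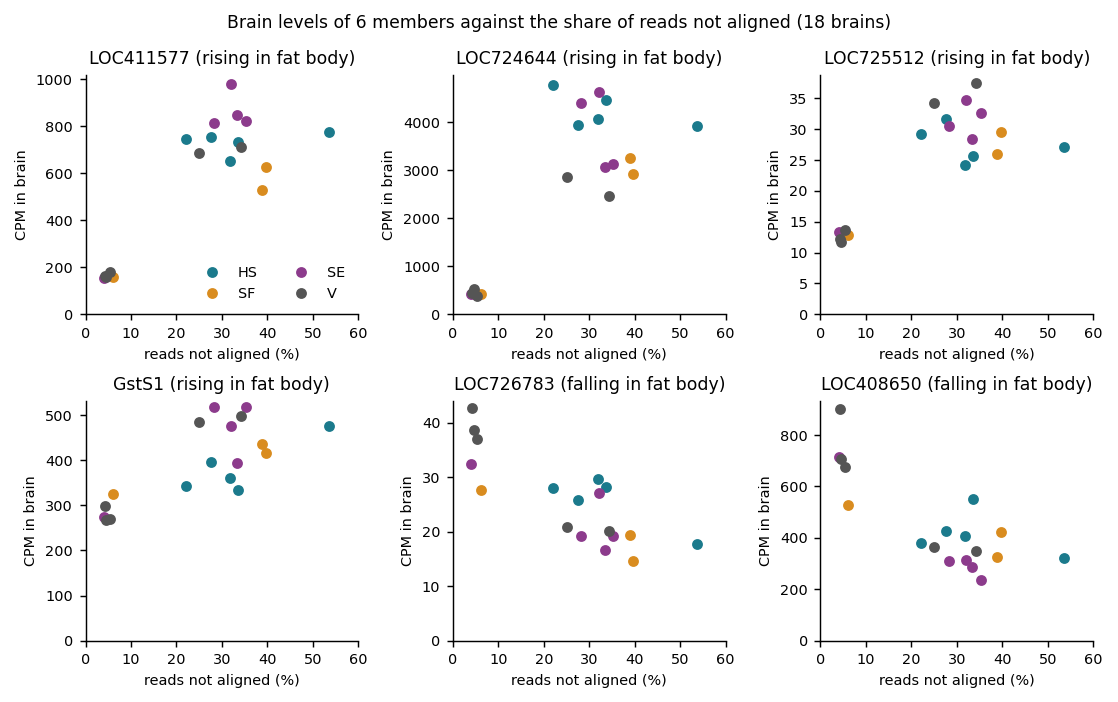
The x axis gives the percent of reads not aligned and the y axis the CPM of 6 members in 18 brains, with colours for HS, SF, SE and V. Brains at or below 6.08% lie apart from those at or above 22.1%, lower for *LOC411577*, *LOC724644*, *LOC725512* and *GstS1*, and mostly higher for *LOC726783* and *LOC408650*.

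The count of calls on the brain slope varied with the libraries and terms used. With the sequencing lane as a term 1 member was called, where 29 genes (0.32%) were, and the slopes of all 17 kept their sign. Without SP16 10 members were called (325 genes, 3.58%), and without S83 and SP16 9 (289 genes, 3.18%). Over the 13 injected brains alone 6 members were called (445 genes, 4.94%), and over these without S83 and SP16 0 (2 genes, 0.0221%). *GstS1*, *LOC411577*, *LOC100577112*, *LOC726783*, *LOC725512*, *LOC724644*, *LOC408650* and *LOC726766* were called in all 18 repeats that left out 1 brain.

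**Figure D5:**
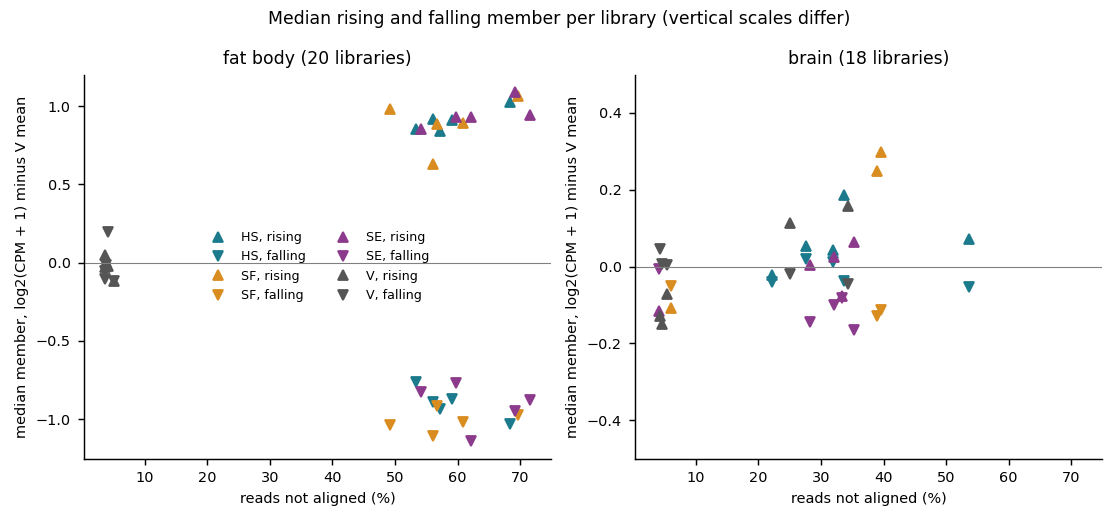
Each point is the median rising member (upward triangle) or falling member (downward triangle) of 1 library, as log2(CPM + 1) minus the V mean, against the percent of reads not aligned, with fat bodies on the left and brains on the right on a narrower vertical scale. Injected and V fat bodies form separate groups on both axes, and the brain medians lie between −0.17 and 0.30. The rule chose the members on these fat bodies, which sets their separation on the vertical axis.

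Gene families with a named member were read over all their listed genes, members or not, by edgeR over all fat body genes. Differences are edgeR log2 values relative to V. Apart from the rRNA genes, the lists held only genes with a named symbol, so relatives without one are left out. Background shares of genes called higher and lower were 3.45 and 4.18% in HS, 13.6 and 14.5% in SF and 16.3 and 17.1% in SE. Of 10 odorant binding protein genes tested, 3 were called lower in HS (*Obp17*, *Obp18* and *Obp21*), and 0 higher. The same 3 were called lower in SF, and these with *Obp12* and *Obp19* in SE. *Obp14*, the 1 gene called higher in SF and SE, was at 2.12 in SF and 2.19 in SE, and its HS difference was 0.25. *Obp17* was at −0.93 in HS, −1.47 in SF and −1.47 in SE.

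Of 9 glutathione S-transferase and antioxidant genes tested, 1 was called higher in HS, *GstS1* itself, and 4 in each of SF and SE, where *MsrA* was called lower in SE. *GstD1*, a delta-class transferase, differed by 0.13 in HS, 1.06 in SF and 1.30 in SE. In the brain slope *GstS1*, *Cat* (catalase) and *Trxr-1* (thioredoxin reductase) were called positive and *MsrA* negative, of 8 tested. Of 11 ligand-gated ion channel genes tested *Hiscl1* was the one called higher in each injected group, and 0, 3 and 4 were called lower in HS, SF and SE. *GluCl*, a glutamate-gated chloride channel, was at −0.45 in HS, −0.57 in SF and −0.68 in SE, the last 2 called.

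Of 2 juvenile hormone genes tested *JHBP-1* was called lower in all injected groups, and *Kr-h1*, a transcription factor of the juvenile hormone pathway, in SF, at −1.0, and SE, at −0.65. Of 9 cuticular protein genes tested *Cpap3-d* and *CPR28* were called lower in all injected groups. Of 13 mitochondrially encoded protein genes 0 were called in HS or SF and 1, *CYTB*, was called higher in SE. Of 8 rRNA genes tested 0 were called in HS and 1 was called higher in SF and SE. Members called here were chosen on the same contrast and are not independent of it.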

How the data were processed

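The authors trimmed reads with cutadapt, aligned them with HISAT2 to Amel_HAv3.1 and the Deformed Wing Virus genome, and deposited raw HTSeq counts per gene, without normalization, over whole gene spans. Rows of unassigned reads were left out of library sizes and gave the unaligned share. Groups came from the sample labels.

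Members were found as described above, with a pseudocount of 1. Counts were tested in R 4.3.3 with edgeR 4.0.16 (filterByExpr at a minimum count of 20, TMM, quasi-likelihood test, Benjamini-Hochberg adjustment over all genes, threshold 0.05). All groups of a tissue were fitted together. DESeq2 1.42.0, limma-voom 3.58.1, other scalings and filters, a lane term and leaving out each library were alternatives. The members and lists were chosen with earlier results of these data known. Genes were named by rank, by a brain call, by a family list or as the edge of the rule, and 19 other members after their values were seen (*Fabp*, *Adk1*, neighbouring members, and those with a high level, a low p or 1 deciding library). Each library is 1 queen. Of 12332 genes 835 had a named symbol in the annotation. Family and marker lists, apart from the rRNA genes, were matched by such symbols and miss other genes of their kind. Planned promoter and gut marker searches were not run. The edgeR tests of the injected mean against V and of the slope were tried on simulated data, and the other steps were not.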

Additional observations from a re-analysis of the deposited data

Results flagged for a closer look

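Over the 56 members named in the text, 392 sets of 5 libraries of 1 group and tissue were examined, and in 52 (13.3%) the highest or lowest library lay apart from the others by Dixon's limit. Chance flags about 1 in 20 groups, and some of these members were named for a library that stood apart.

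The SE brain S83 stood apart in 8 members. It was at 156 CPM for *LOC411577*, where the other SE brains were at 811 to 978 CPM, and at 714 CPM for *LOC408650*, where they were at 236 to 313 CPM. It was at 276 CPM for *JHBP-1*, 23.8 CPM for *LOC409143*, 61.5 CPM for *Cpap3-d*, 38.5 CPM for *LOC113219378*, 93.4 CPM for *LOC100577883* and 322 CPM for *LOC411564*, the highest SE brain in each. Its unaligned share of 4.05% was the lowest of the SE brains, and the part of that share in these values was not tested.

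Other brains stood apart in 1 to 3 members. H73 was at 98.6 CPM for *LOC411894* and 98.1 CPM for *LOC412986*, H51 at 449 CPM for *LOC724367* and H75 at 7.83 CPM for *Obp18* and 1054 CPM for *LOC411564*, the highest HS brains. H74 was highest in HS at 63.0 CPM for *LOC408539* and 29.4 CPM for *ATP6*. Among V brains C20 was highest at 4.98 CPM for *LOC409143*, 21.2 CPM for *Obp18* and 72.3 CPM for *LOC412986*, and C64 at 11.8 CPM for *LOC551197*.

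In HS fat bodies H74 was lowest at 6.15 CPM for *LOC552773*, 53.3 CPM for *LOC409712* and 22.3 CPM for *Adk1* and highest at 35.0 CPM for *LOC409351*, and H73 was highest at 25.1 CPM for *LOC408453*, H53 at 15.7 CPM for *LOC102653748* and H75 at 40.2 CPM for *LOC726855*. In SF fat bodies the highest were SP35 at 328 CPM for *LOC724367*, SP16 at 126 CPM for *LOC724644* and 116 CPM for *LOC410537*, SP76 at 36.8 CPM for *LOC551143* and 27.3 CPM for *LOC552417*, and SP79 at 28.7 CPM for *LOC100577026*, 20.0 CPM for *LOC100577883* and 35.6 CPM for *LOC411564*. SP1 was the highest SF fat body at 49.3 CPM for *LOC408539*, 1219 CPM for *LOC408650*, 112 CPM for *LOC410133* and 687 CPM for *LOC412986*. In SE fat bodies the highest were S83 at 242 CPM for *LOC724367*, S27 at 29.4 CPM for *LOC411907* and 10.3 CPM for *LOC551197*, S38 at 25.4 CPM for *LOC100576986* and S29 at 38.6 CPM for *LOC409351*. In V fat bodies C77 was highest at 842 CPM for *JHBP-1*, 72.4 CPM for *LOC100577883* and 235 CPM for *LOC411564* and lowest at 98.3 CPM for *LOC113219378*. C49 was highest at 36.0 CPM for *LOC113219382*, 30.1 CPM for *LOC102653748* and 69.5 CPM for *LOC413590*, C20 at 35.8 CPM for *LOC725106* and C68 at 29.1 CPM for *LOC102655526*.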

How the results depend on the processing

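Of the 100 members 41 were still chosen with a limit of 0.1 between ejaculate and Hayes queens. With a minimum mean of 20 CPM 59 were chosen, 77 on TMM-scaled sizes, and 68 to 95 when 1 library was left out. Only 24 members were chosen in all 20 repeats that left out 1 library, and 78 in 15 or more. TMM scaling put the median HS difference of all eligible genes at 0.00, against 0.07 without it, that of rising members to 0.77 and that of falling members to −0.95. In the fat body 641 genes were called between HS and V, 0 with the unaligned share as a term and 344 to 967 without 1 library (344 without C20, 367 without C77, 394 without C68, 967 without C49). With that term 3 genes were called in SF and 1 in SE. The term was chosen after seeing the data, and it is nearly the same as injection in the fat body. DESeq2 called 1 member in the fat body slope and 1 in HS brains. Between SF and V brains 0 to 7 members were called without 1 library and 9 without S83 and SP16, and for the mean of injected brains 1 without these. The brain slope called 17 members, 1 with lane as a term, 10 to 18 without 1 library, 9 without S83 and SP16, 6 over only injected brains, and 0 over these without S83 and SP16, where the slopes of *LOC725512* (−0.033), *LOC724644* (−0.092), *LOC726766* (−0.045), *LOC552417* (−0.093) and *LOC410537* (−0.30) were negative. The subsets of injected brains were chosen after seeing the data, and the causes were not tested. No paired analysis was possible because the groups compared within a tissue held different queens. Genes with few reads, such as *LOC411907* (9 in its lowest fat body library), are the least precise, and each library is 1 queen, so p-values cover the spread between queens.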
